A study of Mus musculus with 56 samples.

Results

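The genes examined here are 10 genes of iron handling: the hepcidin genes Hamp and Hamp2, the transferrin receptors Tfrc and Tfr2, transferrin itself (Trf), the ferritin subunits Fth1 and Ftl1, the iron exporter ferroportin (Slc40a1), and the hepcidin regulators hemojuvelin (Hfe2) and Bmp6. They were picked by symbol from the 23813 genes of the liver RNA-seq table, with the first listed transcript standing for each gene, and all 10 were found.

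The study asked how thyroid hormone (T3) changes gene expression and enhancer acetylation in mouse liver, and how the co-repressor NCOR1 takes part. RNA-seq covered 12 livers of male mice in 3 groups of 4 biological replicates, 1 library per replicate. All mice, controls included, ate food low in iodine for 16 days that contained 0.15% propylthiouracil (PTU), an inhibitor of thyroid hormone synthesis. Hypothyroid WT mice were given vehicle, and hyperthyroid WT mice were injected intraperitoneally with 5 μg T3 for the last 4 to 6 days. Hypothyroid L-NCOR1ΔID mice, on a mixed C57BL/6;129S background, had the same diet and no T3, and carry in the liver a mutant NCOR1 without the domains that bind the T3 receptor. The labels do not give the strain or the ages of the individual RNA-seq mice. Over all its mice, the paper lists a lower mean age for L-NCOR1ΔID than for hypothyroid or hyperthyroid WT, with overlapping spreads. Age and strain may therefore differ along with genotype in both comparisons with L-NCOR1ΔID. No euthyroid group was analysed here, so that each comparison with T3 is between a hormone-depleted and a hormone-treated liver.

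Iron enters hepatocytes mainly bound to transferrin, is stored inside cells in ferritin, and leaves cells through ferroportin. Hepcidin, a peptide hormone made by hepatocytes, binds ferroportin and causes its degradation, and thereby lowers the iron that reaches the blood. Hepcidin transcription is raised by BMP6 and its co-receptor hemojuvelin through SMAD proteins and by interleukin-6 through STAT3. Mice have the Hamp gene and its duplicate Hamp2. Much of the control of ferritin, the transferrin receptor and ferroportin lies outside transcription, in iron regulatory proteins that bind their mRNAs, and the data here are RNA levels only.

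Values are RPKM, read counts divided by transcript length and library size, so that levels of different genes can be compared. In each comparison of 8 libraries, limma was run on log2(RPKM + 0.1) for the genes that reached 0.1 RPKM in 4 or more of them. A gene was called when its Benjamini-Hochberg adjusted p over all genes tested was under 0.01. All fold changes below are on that log2 scale, and their errors are standard errors (SE). All 10 genes passed the filter in each comparison, and all p-values are adjusted unless stated otherwise.

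The labels were first compared with 2 genes. Dio1, a T3-induced deiodinase, ranged from 459 to 641 RPKM in hyperthyroid WT and from 0.719 to 57.7 RPKM in hypothyroid WT, where replicate 3 was the highest. Ncor1 ranged from 12.1 to 13.9 RPKM in L-NCOR1ΔID and from 14.1 to 15.6 RPKM in hypothyroid WT, a gene-level value that does not show the deleted part. The hepatocyte markers were far above those of other liver cells in all groups, with summed levels of 18380 to 48370 RPKM. The steps between the lowest values put the depth of the hyperthyroid libraries at 0.68 to 0.84 times that of hypothyroid WT replicate 1, against 0.93 to 1.21 times for the other hypothyroid WT libraries and 1.21 to 1.36 times for the L-NCOR1ΔID libraries. The median gene was 0.23 higher (log2) in hyperthyroid than in hypothyroid WT, 0.19 higher in hyperthyroid WT than in L-NCOR1ΔID, and 0.03 higher in L-NCOR1ΔID than in hypothyroid WT. Scaling the libraries to the median of gene ratios brought the first of these to 0.01.

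The hepcidin genes lie on chromosome 7 (mm9), both on the minus strand, with start sites 19.8 kb apart. Hamp spans chr7:31727390-31729036 and Hamp2 spans chr7:31707391-31709200 (GENCODE M1). Only the 250 bases before each annotated start site were searched, and nothing further upstream. They are shown because in Hamp they hold some of the sequences through which BMP and STAT3 signalling are known to act on hepcidin. They also show how alike the genes are. They were read from the mm9 genome at chr7:31729037-31729286 for Hamp and chr7:31709201-31709450 for Hamp2, both written on the minus strand. Capitals mark the BMP response element core GGCGCC, the aligned letters of Hamp2, and the STAT element TTCNNNGAA.
Hamp: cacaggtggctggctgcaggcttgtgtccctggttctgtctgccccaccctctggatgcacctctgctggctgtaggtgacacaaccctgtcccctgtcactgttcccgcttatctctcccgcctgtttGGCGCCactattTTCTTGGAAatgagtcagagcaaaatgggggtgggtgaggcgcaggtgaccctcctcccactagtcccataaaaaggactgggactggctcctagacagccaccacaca
Hamp2: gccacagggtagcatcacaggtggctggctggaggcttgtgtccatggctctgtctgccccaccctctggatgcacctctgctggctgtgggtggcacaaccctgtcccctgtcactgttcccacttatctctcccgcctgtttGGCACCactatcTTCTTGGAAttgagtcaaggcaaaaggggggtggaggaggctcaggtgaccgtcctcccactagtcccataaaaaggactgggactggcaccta

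The core GGCGCC stood 121 to 116 bases before the start site of Hamp and was not matched in the window of Hamp2. There the aligned letters differed by G4A, counted from the 5′ end of the core. The STAT element, read as TTCTTGGAA in both genes, lay 109 to 101 bases before the Hamp start site and 94 to 86 bases before that of Hamp2. Among 22375 promoter windows of protein-coding genes of the same length, searched on both strands, 11.1% held GGCGCC and 6.83% held TTCNNNGAA. The nuclear receptor motif AGGTCA, the E-box CACGTG and TATAAA were searched as well, are held by 12.6%, 6.52% and 12.3% of all windows, and were matched in neither window. Aligned base for base, the windows were identical at 218 positions and differed at 17, with 30 gap positions. The transcripts were alike too, with 94.4% of aligned bases identical and a longest identical run of 87 bases. Reads from such stretches cannot be told apart, and the share the authors' counting gave to each gene is not given in the sources used here, so the level of either hepcidin gene is uncertain to that extent.

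The start site of each of the 10 genes lay inside one of the 37200 regions listed as acetylated at H3K9 or H3K27, against 85.8% of the 13420 tested genes with a known position. This list pools the libraries and gives positions without signal, so nothing follows from it about differences between groups. The region over the Hamp start site, chr7:31726064-31763364, was 37301 bases long and reached across the neighbouring gene Usf2 and into Lsr and Fam187b. The Hamp2 start site lay in a separate region of 2824 bases, chr7:31707543-31710366. The other regions at start sites were 19086 bases long at Trf, 17091 at Slc40a1, 12554 at Ftl1, 12307 at Fth1, 9624 at Hfe2, 4156 at Tfrc, 3584 at Tfr2 and 3503 at Bmp6, beside a median of 3937 bases over tested genes.

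**Figure D1:**
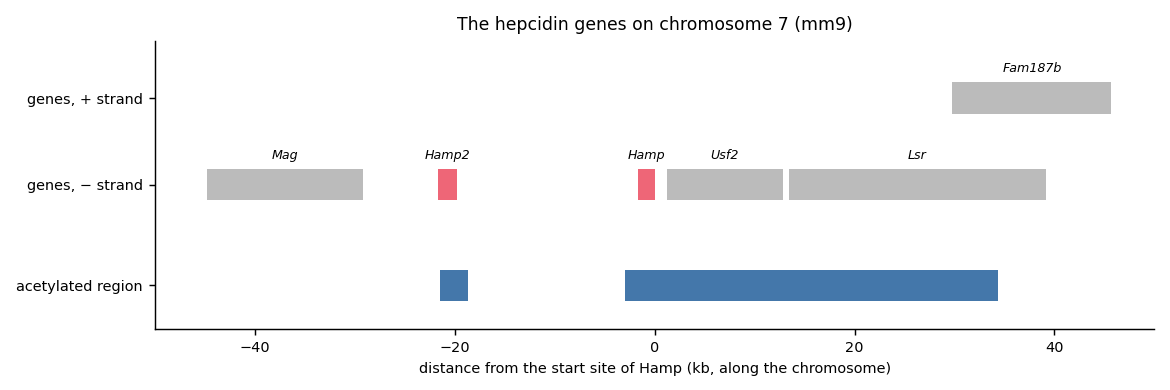
Protein-coding genes (minus strand in the middle row, plus strand in the top row) and H3 acetylated regions (bottom row) around Hamp, against the distance in kb from its start site. The acetylated region over Hamp is 37301 bases long and the separate region over Hamp2 is 2824 bases long.

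Levels of the 10 genes spanned a wide range. In hypothyroid WT, Trf was the 6th highest of the 23813 genes with a mean of 4950 RPKM, followed among these genes by Fth1 (1414), Hamp (826), Ftl1 (795), Hamp2 (203), Tfr2 (111), Slc40a1 (33.9), Hfe2 (22.0), Tfrc (10.3) and Bmp6 (1.71). Neighbours in that order whose libraries overlapped were Hamp and Ftl1, and Hamp2 and Tfr2. The order in L-NCOR1ΔID was the same except that Ftl1 stood above Hamp. In hyperthyroid WT, Hamp2 dropped from the 5th to the 9th place, where its libraries overlapped those of Tfrc, while the other 9 genes kept their order among themselves.

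**Figure D2:**
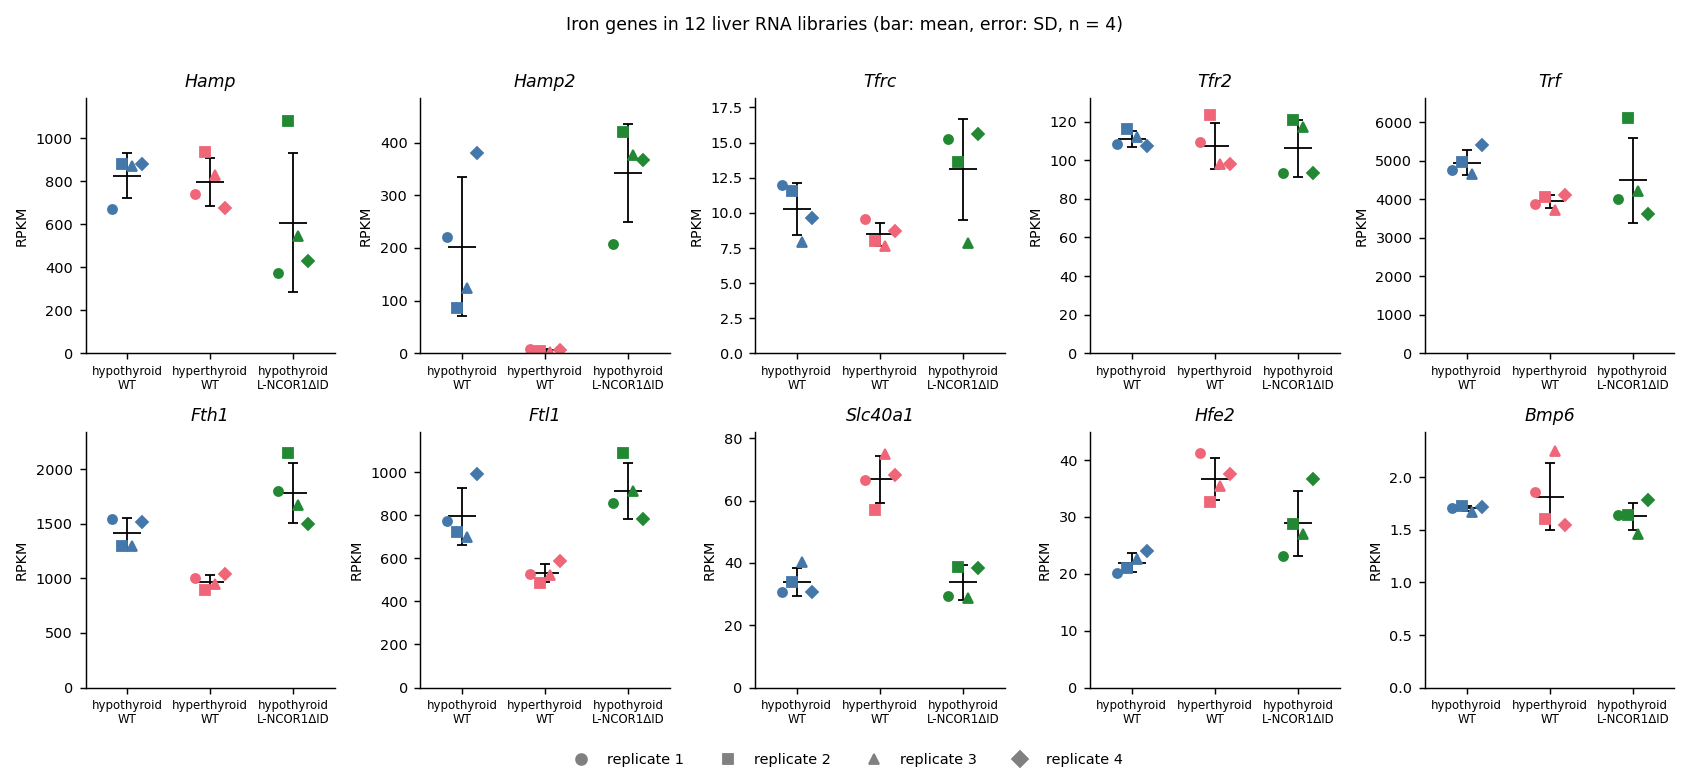
RPKM of each gene (y axis, linear from 0) in the 12 libraries by group (x axis), with symbols for replicates, a bar for the mean and an error bar for the SD (n = 4). Hamp2 lies at 3.25 to 7.71 RPKM in hyperthyroid WT and at 85.4 to 420 RPKM in the other libraries.

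In hyperthyroid against hypothyroid WT livers, 5 of the 10 genes were called. Slc40a1 and Hfe2 rose, and Hamp2, Fth1 and Ftl1 fell, while Hamp, Tfrc, Tfr2, Trf and Bmp6 were not called. Of all 13941 genes tested, 24.5% were called higher and 7.71% lower. With a log2 change of more than 1 in size required in addition, only Hamp2 remained, and 8.28% of all genes were called above 1 and 3.47% below -1. The median change of the 10 genes was -0.16, beside 0.23 for all genes. The same 5 genes were called in the same directions when the libraries were scaled to the median of gene ratios, where the calls over all genes moved from 3413 higher and 1075 lower to 1729 higher and 1932 lower. The count fell to 3 when hypothyroid WT replicate 1, hypothyroid WT replicate 4 or hyperthyroid WT replicate 2 was left out, in each case because neither ferritin gene was called, and to 4, without Ftl1, when hypothyroid WT replicate 2 or hyperthyroid WT replicate 1 or 3 was left out. p-values measure the spread between mice of 1 experiment.

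Hamp2 had the largest difference of these genes. It measured 220, 85.4, 125 and 381 RPKM in hypothyroid WT replicates 1 to 4 and 7.71, 4.59, 3.25 and 7.16 RPKM in the hyperthyroid ones. Every hyperthyroid library lay far below every hypothyroid one, although hypothyroid WT alone varied 4.46-fold. Hamp2 fell by 4.98 ± 0.45 (SE), a 31.7-fold lower level with limma's adjusted p = 4.9e-05, the 16th lowest fold change of the 13941 genes tested.

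Hamp, which encodes the hepcidin active in iron metabolism, measured 673, 882, 872 and 878 RPKM in hypothyroid WT and 742, 934, 828 and 674 RPKM in hyperthyroid WT. The groups overlapped almost completely. The difference was -0.06 ± 0.14 (95% interval -0.37 to 0.25, limma's adjusted p = 0.75). It was 0.02 without hyperthyroid WT replicate 4 and -0.29 ± 0.15 after scaling to the median of gene ratios, not called in either, so the interval above holds for the deposited scaling only.

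The share of Hamp2 in the summed RPKM of both hepcidin genes was computed after the values were seen. It was 19.1% ± 10.1 (SD, n = 4) in hypothyroid WT, with 8.84% as the lowest and 30.3% as the highest library, and 0.740% ± 0.348 in hyperthyroid WT, with all libraries between 0.391% and 1.05%. The summed level of both genes was 1029 ± 159 RPKM in hypothyroid WT and 800.3 ± 111 RPKM in hyperthyroid WT, and these overlapped. Hepcidin RNA in the hyperthyroid livers was thus almost entirely listed under Hamp.

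Uptake and plasma carriage gave no called gene. Trf, the plasma iron carrier secreted by hepatocytes, measured 4762, 4975, 4655 and 5407 RPKM in hypothyroid WT and 3887, 4062, 3729 and 4100 RPKM in hyperthyroid WT. All hyperthyroid libraries lay below all hypothyroid ones, but the difference of -0.33 ± 0.15 missed the threshold (limma's adjusted p = 0.092). Tfr2, a receptor through which hepatocytes sense transferrin-bound iron, lay at 98.0 to 123 RPKM in hyperthyroid WT and 107 to 116 RPKM in hypothyroid WT, a difference of -0.06 ± 0.09 (95% interval -0.25 to 0.14). Tfrc, the general transferrin receptor, lay at 7.67 to 9.53 RPKM in hyperthyroid WT and 7.95 to 12.01 RPKM in hypothyroid WT, a difference of -0.26 ± 0.14 (limma's adjusted p = 0.14). Both receptor genes overlapped between the groups.

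The ferritin genes fell together. Fth1, the heavy subunit that oxidises iron, measured 1545, 1297, 1297 and 1515 RPKM in hypothyroid WT and 999, 895, 948 and 1035 RPKM in hyperthyroid WT. Ftl1, the light subunit, measured 772, 721, 698 and 989 RPKM in hypothyroid WT and 525, 486, 524 and 589 RPKM in hyperthyroid WT. For both, each hyperthyroid library lay below each hypothyroid one. The change was -0.54 ± 0.11 for Fth1 and -0.57 ± 0.13 for Ftl1, with limma's adjusted p = 0.0037 and 0.0056. These calls lay near the threshold: leaving out 1 library at a time, the adjusted p ranged from 0.0066 to 0.014 for Fth1 and from 0.0075 to 0.015 for Ftl1, with the change always negative. The ratio of Fth1 to Ftl1 RPKM was 1.80 ± 0.197 (SD, n = 4) in hypothyroid WT and 1.83 ± 0.0612 in hyperthyroid WT, which overlapped. Of 5 hepatocyte markers, 2 fell (Alb and Ttr) and 1 rose (Hnf4a) in the same comparison, and Apoa1 and Cps1 were not called. Their summed level was 18380 to 26680 RPKM in hyperthyroid WT and 36810 to 48370 RPKM in hypothyroid WT. Most of that sum was Alb, with means of 14320 RPKM in hyperthyroid WT and 31800 RPKM in hypothyroid WT. The part of these marker differences in the ferritin and Trf values was not tested. Ferritin genes have many near-identical pseudogenes in the mouse genome, and reads shared with them could have been lost or split.

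Slc40a1, the only known cellular iron exporter, measured 30.6, 34.0, 40.2 and 30.7 RPKM in hypothyroid WT and 66.8, 57.1, 75.1 and 68.3 RPKM in hyperthyroid WT. The lowest hyperthyroid library was above the highest hypothyroid one. The change was 0.98 ± 0.11, a 1.97-fold higher level with limma's adjusted p = 0.00016. In the liver, ferroportin is also abundant in Kupffer cells, the resident macrophages, which recycle iron from red cells. All 7 Kupffer cell markers were called higher in hyperthyroid WT, with a median change of 1.96, and their summed level was 62.4, 43.6, 45.6 and 44.7 RPKM in hypothyroid WT replicates 1 to 4 and 186, 138, 227 and 196 RPKM in hyperthyroid WT. None of them was at 0. In L-NCOR1ΔID the sum was 73.8, 132, 59.6 and 48.3 RPKM. Within groups the orders agreed in part. In hyperthyroid WT both Slc40a1 and this sum ranked the replicates 3, 4, 1 and 2 from highest to lowest. In L-NCOR1ΔID replicate 2 was the highest for both. Replicate 4 of that group had the lowest sum, with Slc40a1 at 38.5 RPKM, near that of replicate 2. Hypothyroid WT replicate 1 had the highest sum and the lowest Slc40a1 of its group. The sum in L-NCOR1ΔID replicate 2 was near that in hyperthyroid WT replicate 2, with Slc40a1 at 38.8 and 57.1 RPKM. Single markers did not match as the sums did. Of the 7, 4 were called higher in hyperthyroid WT than in L-NCOR1ΔID, beside 15.5% of all genes, and 3 were not called. Clec4f lay at 13.9 to 16.7 RPKM in L-NCOR1ΔID and 38.2 to 62.4 RPKM in hyperthyroid WT, whereas Marco overlapped, with 0.647 to 29.1 RPKM in L-NCOR1ΔID. In whole liver, more cells of a type and more RNA per cell cannot be told apart, and the part of Kupffer cell RNA in the Slc40a1 result was not tested.

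Hfe2, the BMP co-receptor hemojuvelin, measured 20.1, 21.1, 22.6 and 24.1 RPKM in hypothyroid WT and 41.3, 32.7, 35.4 and 37.6 RPKM in hyperthyroid WT, with no overlap. It rose by 0.74 ± 0.09 (1.67-fold, limma's adjusted p = 0.00024). Bmp6, the ligand known to signal liver iron stores and made mainly by sinusoidal endothelial cells, lay at 1.67 to 1.73 RPKM in hypothyroid WT and 1.55 to 2.26 RPKM in hyperthyroid WT. The spread in the hyperthyroid group enclosed all hypothyroid libraries, and the difference of 0.07 ± 0.13 turned to -0.15 after scaling to the median of gene ratios. Of the 6 endothelial markers, 2 were called higher and the summed level was 43.2 to 62.8 RPKM in hypothyroid WT and 63.1 to 73.7 RPKM in hyperthyroid WT. Stellate cell markers had 2 of 6 called higher, and for both cell types this was near the 24.5% of all genes. Both neutrophil markers that could be tested, of 5 listed, were higher. The untested Ngp, Camp and Mpo lay at 0 to 0.064 RPKM in hyperthyroid WT.

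**Figure D3:**
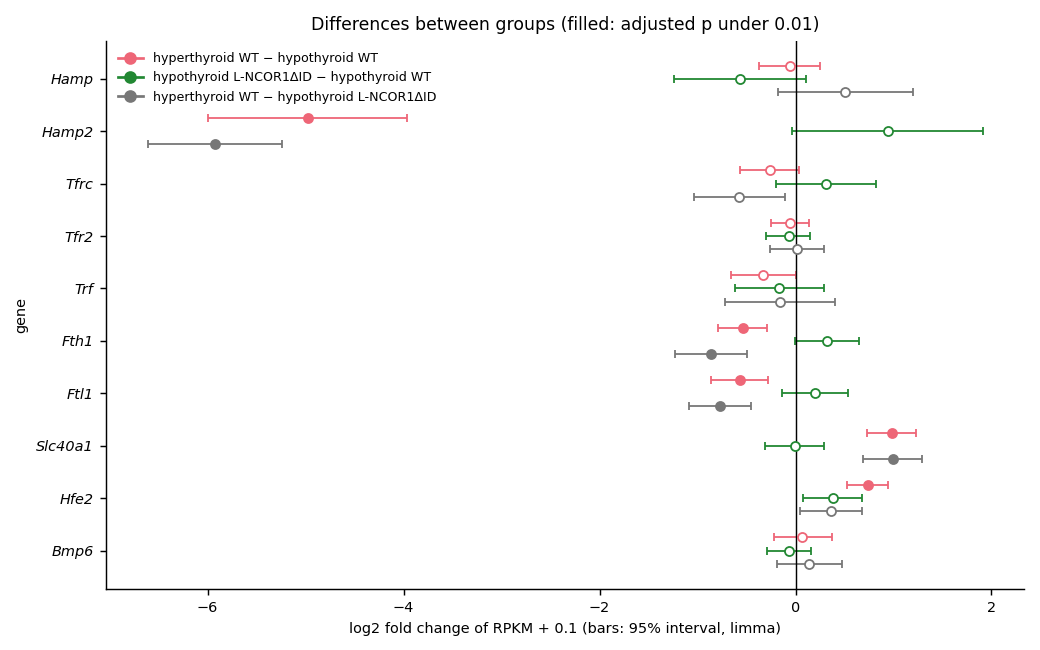
Log2 fold change of RPKM + 0.1 (x axis) for each gene (y axis) in 3 comparisons, with bars for the 95% interval of limma and filled points for an adjusted p under 0.01. Hamp2 lies at -4.98 and -5.92 in the comparisons with hyperthyroid WT, and no point of the comparison of L-NCOR1ΔID with hypothyroid WT is filled.

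In hypothyroid L-NCOR1ΔID against hypothyroid WT livers, none of the 10 genes was called by limma, neither at an adjusted p under 0.01 nor under 0.05. At an unadjusted p under 0.05 the count was 1, Hfe2, and the count of called genes stayed at 0 under every alternative tried. Few genes were called at all in this comparison, 0.725% of 13790 higher and 0.544% lower. The median change of the 10 genes was 0.10, beside 0.03 for all genes. These fits use the same 4 hypothyroid WT libraries as the T3 comparison, so that both sets of differences share their spread.

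Hamp was 375, 1079, 544 and 429 RPKM in L-NCOR1ΔID. Replicate 2 lay above every other library of the study, and the other 3 replicates lay below every WT library. The difference from hypothyroid WT was -0.57 ± 0.30 (95% interval -1.24 to 0.11, limma's adjusted p = 0.32). Without replicate 2 it was -0.89 ± 0.16 with limma's adjusted p = 0.024, still not called. The replicate was the highest of its group also for Hamp2, Trf, Tfr2, Fth1, Ftl1 and, by a small margin, Slc40a1.

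Hamp2 was 208, 420, 376 and 367 RPKM in L-NCOR1ΔID, against 85.4 to 381 RPKM in hypothyroid WT. The groups overlapped, with hypothyroid WT replicate 4 above 3 of the 4 L-NCOR1ΔID libraries. The difference was 0.94 ± 0.43 (95% interval -0.04 to 1.91, limma's adjusted p = 0.26). It was 0.60 without hypothyroid WT replicate 2 and 1.32 without replicate 4, not called in either. The Hamp2 share of both hepcidin genes was 37.7% ± 7.72 (SD, n = 4), from 28.0% to 46.1%, which overlapped the 8.84% to 30.3% of hypothyroid WT in a single L-NCOR1ΔID library.

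Hfe2 measured 23.1, 28.7, 26.98 and 36.8 RPKM in L-NCOR1ΔID, and only replicate 1 fell within the hypothyroid WT range. The difference was 0.38 ± 0.13 (unadjusted p = 0.019, limma's adjusted p = 0.15). Fth1 measured 1801, 2144, 1668 and 1497 RPKM, and replicate 4 alone lay below the highest hypothyroid WT library. Its difference of 0.32 ± 0.15 and that of Ftl1, 0.20 ± 0.15 with 784 to 1089 RPKM, were not called (limma's adjusted p = 0.25 and 0.49). The remaining genes overlapped the WT range widely. Tfrc lay at 7.84 to 15.6 RPKM, Tfr2 at 93.5 to 121 RPKM, Trf at 3629 to 6117 RPKM, Slc40a1 at 28.7 to 38.8 RPKM and Bmp6 at 1.46 to 1.78 RPKM. The interval of the difference was narrowest for Tfr2 (-0.30 to 0.15) and Bmp6 (-0.29 to 0.16), and was -0.31 to 0.29 for Slc40a1.

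Set directly against hypothyroid L-NCOR1ΔID, hyperthyroid WT had 4 called genes. These groups differed in both hormone and genotype, and possibly in age and strain. Hamp2 fell by 5.92 ± 0.30, the 4th lowest fold change of 14017 genes (limma's adjusted p = 6e-06). Fth1 fell by 0.86 ± 0.16 and Ftl1 by 0.77 ± 0.14, with limma's adjusted p = 0.0036 and 0.0031. Slc40a1 rose by 0.99 ± 0.13 (limma's adjusted p = 0.00065). For all 4 genes the groups did not overlap, and the share of all genes without overlap was not counted. The background was 15.5% called higher and 5.7% called lower, and 5.52% and 3% with a log2 change above 1 or below -1, a condition that Hamp2 alone met. The ferritin genes were both lost without hyperthyroid WT replicate 2, which left 2 called genes, and without L-NCOR1ΔID replicate 3, when Tfrc was called instead (-0.80 ± 0.11). Fth1 alone was lost without hyperthyroid WT replicate 3. Without L-NCOR1ΔID replicate 2 the count was 5, since Hamp was called at 0.83 ± 0.18. Hfe2, called against hypothyroid WT, was not called here (0.36 ± 0.14, limma's adjusted p = 0.069), and Tfrc was at -0.58 ± 0.21 (limma's adjusted p = 0.053).

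The other iron genes were described through 7 lists with 59 genes, all of which passed the filter. In hyperthyroid against hypothyroid WT, 15 were called higher and 7 lower, next to the 24.5% and 7.71% of all genes given above. The share called higher was thus near that of all genes. After scaling to the median of gene ratios the same comparison gave 4 higher and 13 lower of the 59. All 13941 genes then gave 1729 higher and 1932 lower, so that the split between directions rests on the scaling. Only Cd163, Hmox1, Hpx and Jak1 were still called higher then, and the other rises among these 59 genes, that of Id1 included, were not. The median of the 59 genes was 0.19, beside 0.23 for all genes.

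Among the 16 genes of BMP and SMAD signalling to hepcidin, 4 rose and 1 fell, shares near the 24.5% and 7.71% of all genes. Tmprss6, a protease that cleaves hemojuvelin, went from 170 ± 8.72 to 124 ± 4.31 RPKM (SD, n = 4), a change of -0.46 ± 0.07 (limma's adjusted p = 0.00059). Id1, a target gene of BMP signalling in the liver, measured 1.30, 3.52, 6.43 and 4.51 RPKM in hypothyroid WT and 10.4, 11.7, 25.8 and 13.5 RPKM in hyperthyroid WT, a change of 2.04 ± 0.45 (limma's adjusted p = 0.0054). The others that rose were the transducers Smad1 (0.81), Smad4 (0.42) and Smad5 (0.29), of which Smad5 lay near the median of all genes. The target gene Smad6 did not overlap between these groups, with 0.996 to 1.89 RPKM in hypothyroid and 1.98 to 2.82 RPKM in hyperthyroid WT, and was not called (0.66 ± 0.19, limma's adjusted p = 0.018). The target genes Smad7 and Atoh8 overlapped, and Hfe, whose product associates with Tfr2, differed by 0.07 ± 0.09.

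Of 6 genes of IL6 and STAT3 signalling, 3 rose, namely Jak1 (0.62 ± 0.08, limma's adjusted p = 0.00025), Il6st and Jak2. Stat3 and its target Socs3 were not called, and both were far higher in hyperthyroid WT replicate 2 (64.9 and 12.4 RPKM) than in the other 3 libraries of that group (23.6 to 33.5 and 2.16 to 3.41 RPKM). The acute-phase gene Saa1, looked at because of this, stood at 9.16 to 14.5 RPKM in hypothyroid WT, at 673, 1388, 220 and 159 RPKM in hyperthyroid WT, and at 56.7, 103, 34.7 and 18.5 RPKM in L-NCOR1ΔID. In every group replicate 2 was the highest for Saa1 as it was for Hamp. In hypothyroid WT the margin for Hamp was small, with 882 RPKM in replicate 2 and 878 RPKM in replicate 4. Across groups the order differed: Saa1 was lowest in hypothyroid WT, where Hamp overlapped hyperthyroid WT and lay above 3 of the L-NCOR1ΔID libraries in every replicate. The part of an acute-phase state in the Hamp values was not tested.

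**Figure D4:**
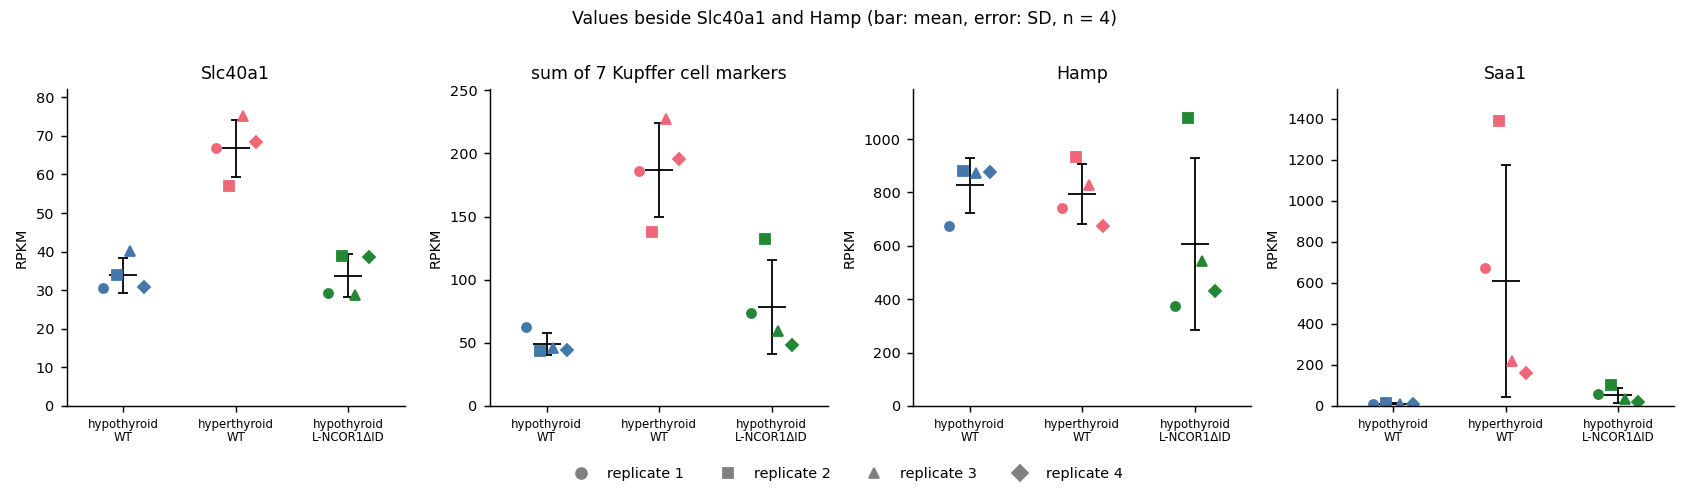
RPKM (y axis, linear from 0) of Slc40a1, the sum of 7 Kupffer cell markers, Hamp and Saa1 in the 12 libraries by group (x axis), with symbols for replicates, a bar for the mean and an error bar for the SD (n = 4). The Kupffer cell sum lies at 138 to 227 RPKM in hyperthyroid WT and at 43.6 to 62.4 RPKM in hypothyroid WT. Replicate 2 is highest for Hamp and Saa1 in every group, by a small margin for Hamp in hypothyroid WT.

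Uptake of iron, haem and haemoglobin had 4 genes called higher of 10 and none lower by limma, beside 24.5% and 7.71% of all genes. Hpx, the plasma haem scavenger made by hepatocytes, went from 1259 ± 40.7 to 3270 ± 554 RPKM (1.36 ± 0.15, limma's adjusted p = 0.00013). Cd163, the haemoglobin receptor of macrophages, went from 2.92 ± 0.364 to 11.6 ± 3.28 RPKM (1.91 ± 0.19, limma's adjusted p = 8e-05), next to the Kupffer cell sums above. The importers Slc11a2 and Slc39a8 rose too. Hp, the haemoglobin scavenger, did not overlap between the groups (910 to 1143 against 1308 to 3666 RPKM) and was not called (limma's adjusted p = 0.020). The ferrireductase Steap4 was at 184, 479, 91.7 and 36.9 RPKM in hyperthyroid WT against 37.9 to 51.6 RPKM in hypothyroid WT, and again replicate 2 was the highest.

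Of 6 genes for export, oxidation and intracellular carriage, 2 rose and 1 fell. Hmox1, the enzyme that frees iron from haem and is abundant in macrophages, measured 8.02, 5.07, 5.58 and 5.65 RPKM in hypothyroid WT and 23.3, 41.0, 21.9 and 16.9 RPKM in hyperthyroid WT (2.01 ± 0.25, limma's adjusted p = 0.00028). Cp, the plasma ferroxidase that works with ferroportin, rose by 0.71 ± 0.14, and the iron chaperone Pcbp2 fell. Ncoa4, which carries ferritin to its breakdown, was at 2.41 to 2.70 RPKM against 2.58 to 2.90 RPKM and overlapped.

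Of 3 genes listed for iron regulatory proteins, 2 fell at the RNA level. Ireb2, whose product binds iron-responsive elements when iron is low, measured 28.3, 22.2, 24.5 and 24.9 RPKM in hypothyroid WT and 15.1, 15.9, 14.1 and 13.6 RPKM in hyperthyroid WT (-0.76 ± 0.09, limma's adjusted p = 0.00018). Aco1, the cytosolic aconitase that becomes such a binding protein without its iron-sulphur cluster, measured 89.5, 84.4, 83.7 and 86.5 against 64.3, 54.5, 52.7 and 59.8 RPKM (-0.58 ± 0.08, limma's adjusted p = 0.00035). Neither overlapped between the groups. Fbxl5, the factor that degrades Ireb2, was not called.

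Of 10 mitochondrial iron genes, 2 fell. Slc25a37, the mitochondrial iron importer, fell from 18.3 to 8.74 RPKM in the mean (-1.05 ± 0.10, limma's adjusted p = 6.1e-05), the lowest p of the 59 genes, and Iscu, a scaffold for iron-sulphur clusters, fell by 0.42 ± 0.06 (limma's adjusted p = 0.00043). In haem synthesis, 1 of 8 genes rose (Urod) and 1 fell, Fech, the enzyme that inserts iron, by 0.51 ± 0.06 (limma's adjusted p = 0.00025). Alas2, the erythroid form of the first enzyme of the path and a member of the erythroid marker list, went the other way from the globins of that list. It measured 73.7 to 92.8 RPKM in hypothyroid WT, 7.70 to 16.2 RPKM in hyperthyroid WT and 28.6 to 45.1 RPKM in L-NCOR1ΔID, and was called lower in both of the latter (-2.91 ± 0.20 and -1.10 ± 0.14, limma's adjusted p = 1.6e-05 and 0.0042), whereas 4 globin genes rose with T3 and were not called in L-NCOR1ΔID.

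**Figure D5:**
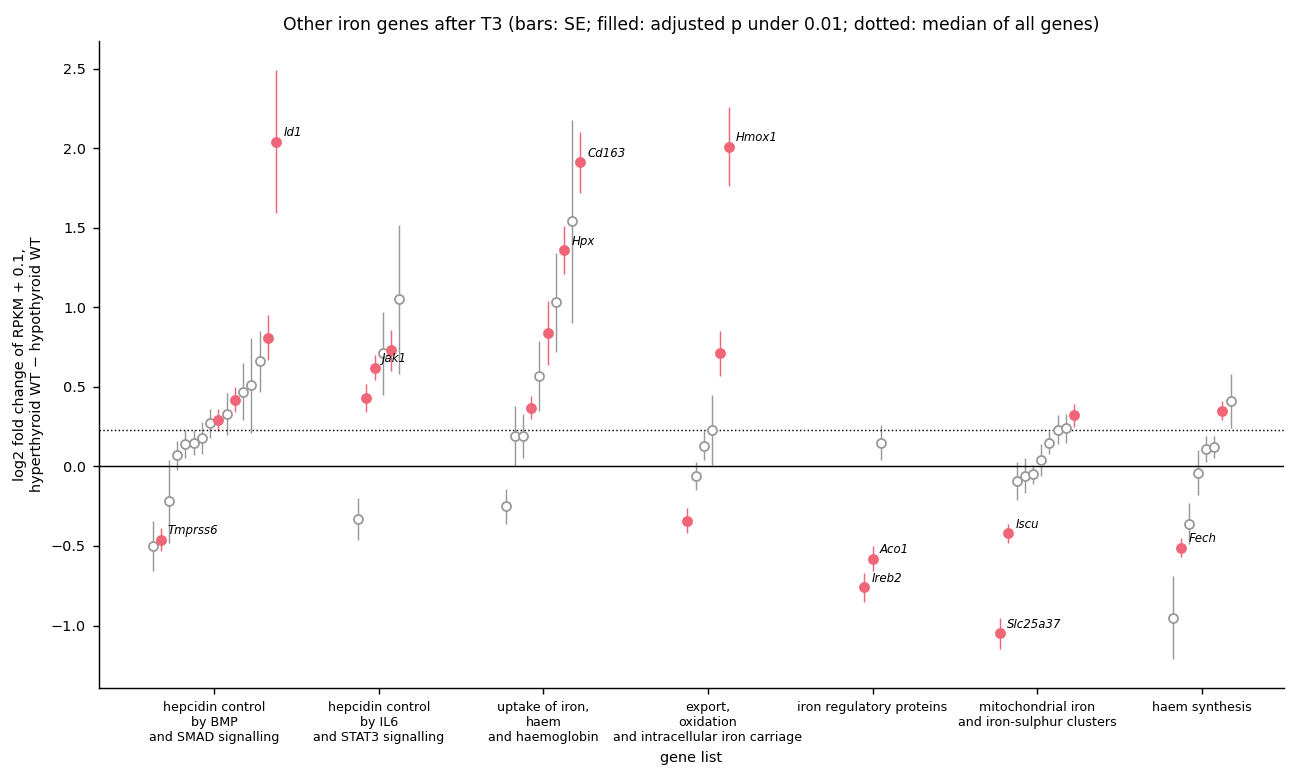
Log2 fold change of RPKM + 0.1 in hyperthyroid against hypothyroid WT (y axis, bars for the SE) for 59 iron genes in 7 lists (x axis), with filled points for an adjusted p under 0.01, names at the 10 with the lowest adjusted p and at the highest, and a dotted line at the median of all genes, 0.23. The 15 genes called higher reach 2.04 for Id1, and the 7 called lower reach -1.05 for Slc25a37.

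None of the 59 genes was called in L-NCOR1ΔID against hypothyroid WT by limma, where 0.725% of all genes were called higher and 0.544% lower. The nearest was Alad, which makes porphobilinogen in haem synthesis, at 22.5 ± 0.801 RPKM against 37.6 ± 6.88 RPKM (-0.72 ± 0.12, limma's adjusted p = 0.012). A lower call of 1 gene appeared when all 12 libraries entered the fit, after scaling to the median of gene ratios, and without hypothyroid WT replicate 1. Hmox1 lay at 8.45 to 18.4 RPKM, above all hypothyroid WT libraries, with a difference of 0.92 ± 0.25 (limma's adjusted p = 0.076). Between hyperthyroid WT and L-NCOR1ΔID, 7 of the 59 genes were higher and 5 lower, beside 15.5% and 5.7% of all genes and with a median of 0.21 against 0.19 for all genes. Those with the lowest p were Cd163 (2.71 ± 0.32, limma's adjusted p = 0.00037) and Urod (0.59 ± 0.07, limma's adjusted p = 0.00037), with Alad, Jak1, Il6st, Bmp2 and Id1 higher and Fech, Slc25a37, Iscu, Aco1 and Ireb2 lower. After scaling to the median of gene ratios the split was 5 higher and 6 lower, beside 1052 higher and 1281 lower of all 14017 genes. Bmp2, a further BMP ligand of sinusoidal endothelial cells, was at 6.39 ± 0.651 RPKM in hyperthyroid WT and 3.89 ± 0.653 RPKM in L-NCOR1ΔID (0.71 ± 0.14, limma's adjusted p = 0.0039). That count was 7 without hyperthyroid WT replicate 3 and 6 without L-NCOR1ΔID replicate 3.

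The genes whose pattern over the 12 libraries was most like that of Hamp were Ubb, Rab2b and Klhl26, among 10662 genes with a mean of at least 1 RPKM. Likeness was the root mean square difference of centred log2 values, which was 0.25, 0.30 and 0.31 for these genes, while the values of Hamp itself spread by 0.45. Of Ubb, a polyubiquitin gene, the L-NCOR1ΔID libraries measured 20.6, 32.5, 26.7 and 20.2 RPKM and the WT libraries 29.4 to 33.2 RPKM. Replicate 2 was the highest of the L-NCOR1ΔID group, but Ubb was chosen for its likeness to Hamp, so this is no separate observation. The genes nearest to Hamp2, looked up after its values were seen, were Inmt, Abcc3 and Clec2h at 0.71, 0.71 and 0.76, beside a spread of 2.67 for Hamp2. Inmt, a methyltransferase, measured 325 to 467 RPKM in hypothyroid WT, 3.74 to 26.4 RPKM in hyperthyroid WT and 579 to 906 RPKM in L-NCOR1ΔID.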

How the data were processed

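Poly(A) RNA-seq of 12 livers gave the values. The authors aligned reads to mm9 with STAR and summarised RefSeq transcripts with HOMER. The table they deposited is in RPKM. The authors tested expression with DESeq2 on read counts, which were not used here. The labels give runs on different instrument models for each RNA sample, so that instruments cannot be compared within the table. Summed RPKM ranged from 491072 to 529370 per library. Of 31370 transcripts, 1 without a name (at most 0.00079% of summed RPKM) was left out, and 0 columns of samples were left unused. The second listed table gives acetylated regions as positions only. Without counts, precision rests on the spread between replicates.

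The first listed transcript represented each gene. Each comparison was fitted on its own 8 libraries using limma 3.58.1 (R 4.3.3) and its variance trend on log2(RPKM + 0.1), after a procedure tested on simulated data. Genes needed 0.1 RPKM in 4 libraries. A gene was called at an adjusted p under 0.01, as in the paper, and a log2 change above 1 was counted apart. Positions came from GENCODE M1 and sequences from the mm9 genome. Summaries and figures used Python 3.11.15, pandas 2.3.3, biopython 1.88 and matplotlib 3.10.9.

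The 10 genes, the lists and the tests were chosen with earlier results of these data known. Named were all 10 genes, the up to 10 called genes of the other iron lists with the lowest adjusted p per comparison, and the 3 genes nearest to Hamp. Other genes were named after their values were seen, and a few listed genes are not reported here. The replicate numbers did not pair the samples. Alternatives were a pseudocount of 1 or 0.01, no filter, only genes averaging 1 RPKM or more, a single fit of all 12 libraries, the replicate block, no variance trend, an adjusted p under 0.05, scaling to the median of gene ratios, the transcript with the highest mean, and each library left out.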

Additional observations from a re-analysis of the deposited data

Results flagged for a closer look

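Of 30 groups of 4 libraries (10 genes in 3 groups), 1 held a library that stood apart from the rest by Dixon's criterion, which chance alone meets in about 1 in 20 groups. It was Hamp in hypothyroid WT replicate 1, at 673 RPKM, while the other 3 libraries lay at 872 to 882 RPKM. The gap to the nearest of them took up 0.953 of the range of the group. Without this library the difference in Hamp was -0.15 ± 0.13 for hyperthyroid WT and -0.66 ± 0.33 for L-NCOR1ΔID against hypothyroid WT, and neither was called.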

How the results depend on the processing

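With no filter, 3 of the 10 genes were called for T3, since the ferritin genes then missed the threshold (adjusted p 0.012 and 0.011). Leaving out 1 library gave 3 to 5 genes for T3, 0 for L-NCOR1ΔID, and 2 to 5 between hyperthyroid WT and L-NCOR1ΔID. For the 59 other genes it gave 16 to 21 for T3, 0 to 1 for L-NCOR1ΔID and 6 to 13 for the direct comparison. At an adjusted p under 0.05 the direct comparison called 23 of the 59 genes, and 1 gene was called in L-NCOR1ΔID, which was also 1 with all 12 libraries in 1 fit and after scaling to the median of gene ratios. That scaling reversed Bmp6 for T3 (-0.15), and Tfr2 (-0.18) and Bmp6 (-0.047) in the direct comparison, none of them called. Leaving out 1 library reversed only differences that were not called, with ranges of -0.033 to 0.14 for Bmp6 and -0.15 to 0.018 for Hamp with T3, -0.080 to 0.076 for Slc40a1 in L-NCOR1ΔID, and -0.052 to 0.082 for Tfr2 and -0.25 to 0.0017 for Trf in the direct comparison.

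The replicate number as a block called 2 of the 10 genes in the direct comparison, so that neither ferritin gene was called, and changed no other count of the 10 genes. Same-numbered libraries correlated from -0.123 to 0.166 in their deviations, so the numbers do not pair the samples. The other alternatives kept every count of the 10 genes within 1.5 times. Over all genes (higher and lower), 100 and 75 calls in L-NCOR1ΔID became 20 and 25 with the block, 139 and 118 in the joint fit, 63 and 57 without the variance trend, and 344 and 257 at an adjusted p under 0.05, with 36 to 110 and 28 to 77 when 1 library was left out. The direct comparison went from 2176 and 799 to 1152 and 490 with the block, 3995 and 1412 at 0.05, 1052 and 1281 after scaling, and as low as 1182 and 469 without L-NCOR1ΔID replicate 3. T3 gave 5244 and 1636 at 0.05. Depth in reads is not given by RPKM, and 4 libraries a group leave intervals as wide as those of Hamp and Hamp2 in L-NCOR1ΔID.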
